A study of Homo sapiens with 9 samples.

Results

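The cells with the highest summed level of mitotic genes were compared with all other cells of the same library, in cultures of U2OS, a human osteosarcoma line whose cells were profiled by droplet-based single-cell RNA sequencing of transcript 3′ ends. Each cell was given an M share, the UMIs (unique molecular identifiers, 1 per counted transcript) of CCNB1, CDC20, PLK1, CENPF, AURKA, UBE2C, TOP2A, HMMR, TPX2 and CENPE as a percentage of all its UMIs. The members were chosen by this share: the 10% of cells with the highest M share in each library, called high-M cells here, numbered 2045 of 20451 in all, against 18406 remaining cells. The 3 HaloTag libraries held 348, 370 and 468 high-M cells at 25R, 52R and 70R, and the 3 Dendra2 libraries held 312, 275 and 272. Because the M share chose the cells, its 10 genes are described without a test and were left out of every comparison below.

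All cells carried RPB1, the largest subunit of RNA polymerase II, with HaloTag or Dendra2 attached and with 25, 52 or 70 repeats in its C-terminal domain (CTD). The genotypes were HaloTag-RPB1-25R, HaloTag-RPB1-52R, HaloTag-RPB1-70R, Dendra2-RPB1-25R, Dendra2-RPB1-52R and Dendra2-RPB1-70R, with 1 library each, and the 9 labelled samples count both sequencing runs of the HaloTag libraries, which are merged. HaloTag is a protein tag labelled through a covalent ligand, and Dendra2 a fluorescent protein whose colour can be switched by light. Every culture had been kept in α-amanitin, an RNA polymerase II inhibitor, at 1 µg per ml for 6 days, so high-M and remaining cells shared that exposure, and cells without it were not analysed here. Libraries of one tag were sequenced on other dates than those of the other, per the series' design text, and tag and date cannot be told apart. The labels do not say whether a genotype came from 1 clone. P-values below measure the spread between 6 libraries, each of which contributed 1 high-M and 1 remaining sample.

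Entry into mitosis is driven by cyclin B with the kinase CDK1, and exit from it by the anaphase-promoting complex (APC/C), which marks cyclin B and securin for destruction. In between, the nuclear envelope opens, condensins compact the chromosomes, kinesins and other microtubule proteins build the spindle, and the spindle checkpoint waits until every kinetochore is attached. Many genes for these steps are switched on together in late S phase and G2 by the MuvB complex with B-MYB and FOXM1. These act through the CHR element of the promoters, many of which also hold a CCAAT box, a site of other factors. E2F factors drive the genes of the G1/S transition. RNA polymerase II transcription is largely shut down while chromosomes are condensed. Since transcripts of the scoring genes build up in G2, the M share does not separate G2 from M, and the cells are named by the score and not by the phase.

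Promoters of 4 genes are shown because the genes stood among the named changes and their promoters hold the elements in question. PIF1, KIF14 and BORA were the first 3 of the genes with the largest rise in high-M cells, by size of rise, whose promoter held both a CHR element (TTTGAA) and a CCAAT box (CCAAT). MCM6 had the largest fall among the genes of G1/S considered for printing whose promoter held a typical E2F site (TTTCCCGC or TTTGGCGC). Both strands were searched. Each stretch runs from 200 bases before the annotated start to 20 bases after it on the gene's own strand, in RefSeq's promoters of GRCh38.p14. Capitals mark CHR elements and CCAAT boxes in the first 3 and E2F sites in MCM6, either way round, and no marked element overlaps another.
PIF1 (chr15:64825628-64825847, minus strand): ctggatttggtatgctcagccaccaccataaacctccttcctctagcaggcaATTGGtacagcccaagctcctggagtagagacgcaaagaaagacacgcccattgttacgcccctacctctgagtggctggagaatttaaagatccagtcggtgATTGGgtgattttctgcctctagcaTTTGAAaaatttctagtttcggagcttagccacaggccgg
KIF14 (chr1:200620732-200620951, minus strand): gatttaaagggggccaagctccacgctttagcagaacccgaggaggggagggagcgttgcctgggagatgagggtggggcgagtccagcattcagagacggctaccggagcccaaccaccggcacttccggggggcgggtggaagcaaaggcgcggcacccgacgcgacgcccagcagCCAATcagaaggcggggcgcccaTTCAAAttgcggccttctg
BORA (chr13:72727723-72727942, plus strand): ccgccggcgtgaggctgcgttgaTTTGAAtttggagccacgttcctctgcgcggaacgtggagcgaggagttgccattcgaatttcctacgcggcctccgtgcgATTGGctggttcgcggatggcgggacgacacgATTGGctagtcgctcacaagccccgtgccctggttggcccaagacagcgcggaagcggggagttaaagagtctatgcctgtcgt
MCM6 (chr2:135876424-135876643, minus strand): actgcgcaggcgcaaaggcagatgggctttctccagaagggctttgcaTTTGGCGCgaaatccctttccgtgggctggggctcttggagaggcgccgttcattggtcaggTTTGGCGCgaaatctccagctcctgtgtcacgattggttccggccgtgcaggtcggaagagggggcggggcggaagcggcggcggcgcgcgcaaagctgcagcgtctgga

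In the full promoter window, 250 bases before to 50 bases after the start, a CHR element and a CCAAT box stood together in 58 of 160 promoters of genes that rose 2-fold or more in high-M cells (36.25%), against 14 of 234 promoters of genes that fell 2-fold or more (5.98%). The pair was found in 4.21% of the 11731 promoters matched to the 15963 genes tested and in 6.08% of all 27305 RefSeq promoters. A CHR element, with or without a CCAAT box, was in 46.9% of promoters of the genes that rose 2-fold or more and in 9.99% of those of all genes tested. A CCAAT box was in 63.75% of them, against 36.3% among all genes tested. It was in 35.9% of promoters of genes that fell 2-fold or more. A CCAAT box was not particular to rising genes, as 27 of 42 promoters of the G1/S and DNA replication list below held one (64.3%). An E2F site was in 3.75% of the promoters of genes that rose 2-fold or more, in 3.85% of those that fell 2-fold or more, and in 3.55% of those of all genes tested. Among the genes of G1/S and DNA replication listed below, 20 of 42 promoters held one (47.6%), and 2.31% of all RefSeq promoters did. These are matches of letters, not measured binding.

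The M share rose steeply toward the top of each library. Its median over high-M cells was 0.509%, 0.726% and 0.769% in HaloTag 25R, 52R and 70R and 0.551%, 0.585% and 0.532% in Dendra2 25R, 52R and 70R, and over remaining cells 0.119%, 0.0728% and 0.0770% in HaloTag and 0.152%, 0.152% and 0.142% in Dendra2. The lowest high-M cell and the highest remaining cell were almost equal, at 0.43821% and 0.43766% in Dendra2 25R, where the gap was widest, and the boundary lay between 0.407% in HaloTag 25R and 0.604% in HaloTag 70R. Between 4.43% and 6.22% of a library's cells lay within 10% of that boundary, so high-M cells are one end of a continuous range. Remaining cells without a single UMI of a scoring gene made up 9.03%, 15.3% and 19.2% in the HaloTag libraries (25R, 52R, 70R), against 3.77%, 3.64% and 5.11% in the Dendra2 libraries.

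**Figure D1:**
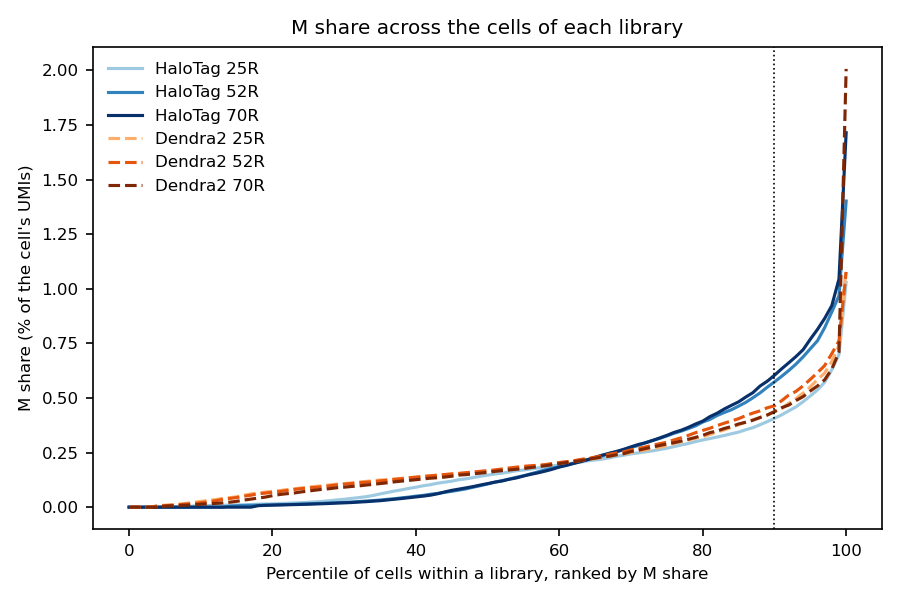
M share (percent of a cell's UMIs, y axis) against the percentile of cells within each library ranked by that share (x axis), 1 line per library, HaloTag solid and Dendra2 dashed; the dotted line marks the 10% of cells taken as high-M. HaloTag 52R and 70R lie lowest over the lower part of the ranking and highest at the dotted line, where the boundary was 0.574% and 0.604%.

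Each scoring gene was higher in high-M cells of every library by construction. AURKA, the kinase that matures centrosomes, stood between 3.86 and 6.81 times its level in remaining cells (median 4.75), and CENPE, a kinesin of the kinetochore, between 4.44 and 5.94 times (median 4.78). The smallest ratios were those of HMMR, a spindle protein (2.53 to 4.45 times, median 3.05), and CDC20, the APC/C activator that the checkpoint holds back (2.55 to 4.53 times, median 2.82). All 10 genes had ratios above 1 in all 6 libraries, and for all 10 the highest ratio was in HaloTag 52R or 70R.

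High-M cells were also richer in UMIs, which enter the M share as its denominator. Their median UMI counts were 18960, 17806 and 15020 in HaloTag 25R, 52R and 70R and 18579, 21967 and 22076 in Dendra2, against 15777, 13267 and 10510 in remaining HaloTag cells and 15597, 18070 and 18521 in remaining Dendra2 cells, a ratio of 1.19 to 1.43. Cells of at least 5000 UMIs were also thinned to 5000, which left out 3 to 14 high-M and 28 to 211 remaining cells per library. The median number of genes per thinned cell was 2103 to 2204 in high-M cells and 1994 to 2084 in remaining cells. Cells with more than 2 times the library's median UMIs made up 6.25% to 11.9% of high-M cells and 1.91% to 4.31% of remaining cells. No doublet caller was run, and the part of doublets in the changes was not tested beyond leaving those cells out. Library totals lay between 52.6 M and 58.4 M UMIs, and pairs of libraries shared between 0 and 7 cell barcodes, of which none was high-M in both.

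The choice of cells was compared with 16 other genes of G2 and M, among them CCNB2, CDK1, BUB1 and MKI67. Between 71.2% and 79.9% of high-M cells, and 2.23% to 3.20% of remaining cells, lay in the top 10% of their library for the summed share of these 16 genes. For genes of G1/S and DNA replication the shares were 0.962% to 4.31% of high-M cells, against 10.6% to 11.0% of remaining cells. In HaloTag 25R, 52R and 70R these genes made up a median of 0.356%, 0.344% and 0.314% of a high-M cell's UMIs. In remaining cells the median was lower, at 0.309%, 0.339% and 0.284%. Dendra2 had the opposite order, with 0.318%, 0.336% and 0.351% in high-M cells and 0.404%, 0.448% and 0.405% in remaining cells. The 3 tested markers of leukocytes, which the cultures should lack, summed to 1.81 to 14.1 CPM (counts per 1 M UMIs of the sample) in high-M samples and 2.41 to 23.7 CPM in remaining samples. KRT8 and KRT18, keratins of simple epithelia, were present in both, with KRT18 at 634 to 1224 CPM in high-M samples and 758 to 1293 CPM in remaining samples.

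UMIs of the high-M and of the remaining cells were summed per library and compared with library as a block (edgeR's quasi-likelihood test, Benjamini-Hochberg adjusted p under 0.05 over 15963 genes). In high-M cells 3241 genes were higher, 20.3% of those tested, and 3830 were lower, 24%. Counts of list members below stand against these shares. Of the 7071 called genes, 5505 moved the same way in all 6 libraries. Changes of 2-fold or more were fewer, 201 higher and 398 lower, and the median log2 difference over all genes tested was -0.04. Scaling to library totals in place of trimmed means of M values (TMM) gave 4255 higher and 2848 lower genes, so that 59.9% of calls were higher instead of 45.8%, and small shifts of large gene groups depend on that choice. With remaining cells matched to high-M cells on UMIs per cell, 2803 genes were higher and 3238 lower. Cells were ranked on the scoring genes in the same cells in which the other genes were then compared, so the test shows which genes moved along with the score.

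The largest rise was that of PIF1, a DNA helicase. PIF1 stood at 97.8, 141 and 111 CPM in high-M cells of the HaloTag libraries (25R, 52R, 70R) and at 109, 129 and 113 CPM in those of Dendra2, against 16.9, 17.7 and 15.6 CPM in remaining HaloTag cells and 25.1, 21.7 and 27.4 CPM in remaining Dendra2 cells. The lowest high-M sample was more than 3 times the highest remaining sample, and the log2 difference was 2.51 ± 0.09 (SE, n = 6 libraries; edgeR adjusted p = 9.46e-13). NEK2, a centrosomal kinase that releases the tether between centrosomes, had a lowest, median and highest level of 126, 145 and 239 CPM in high-M cells and 25.8, 30.0 and 34.4 CPM in remaining cells (log2 2.42 ± 0.10). KIF14, a kinesin of the central spindle, stood at 86.4, 105 and 145 CPM against 19.8, 21.8 and 24.2 CPM (2.33 ± 0.08). These groups did not overlap for either gene.

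The other genes among the 15 with the largest rise, of those averaging at least 10 CPM, were mostly genes of the spindle and centrosome. FAM83D, which recruits a kinesin to spindle microtubules, rose by 2.29 ± 0.08, and ASPM, a protein of the spindle poles, by 2.21 ± 0.07 (log2, SE). BORA, the activator through which Aurora A switches on PLK1, rose by 2.25 ± 0.11, and KIF20A, a kinesin of cytokinesis, by 2.20 ± 0.10. Other genes of this group were GAS2L3, a linker of microtubules and actin (2.12 ± 0.10), KIF18A, a kinesin that damps chromosome oscillation (2.12 ± 0.06), CNTRL, a protein of the mother centriole (2.10 ± 0.07), ARL6IP1, which shapes the endoplasmic reticulum (2.06 ± 0.08), and the microtubule protein PSRC1 (2.06 ± 0.09). CDCA2, which brings protein phosphatase 1 to chromosomes, rose by 2.05 ± 0.07, FAM110A, a centrosomal protein, by 2.05 ± 0.09 and EXPH5, an effector of the small GTPase RAB27, by 2.04 ± 0.10. A rise in 6 of 6 libraries was a condition of choosing these 15 genes. High-M and remaining samples did not overlap for any of them, which a choice by large rise favours (edgeR adjusted p at most 2.46e-11).

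**Figure D2:**
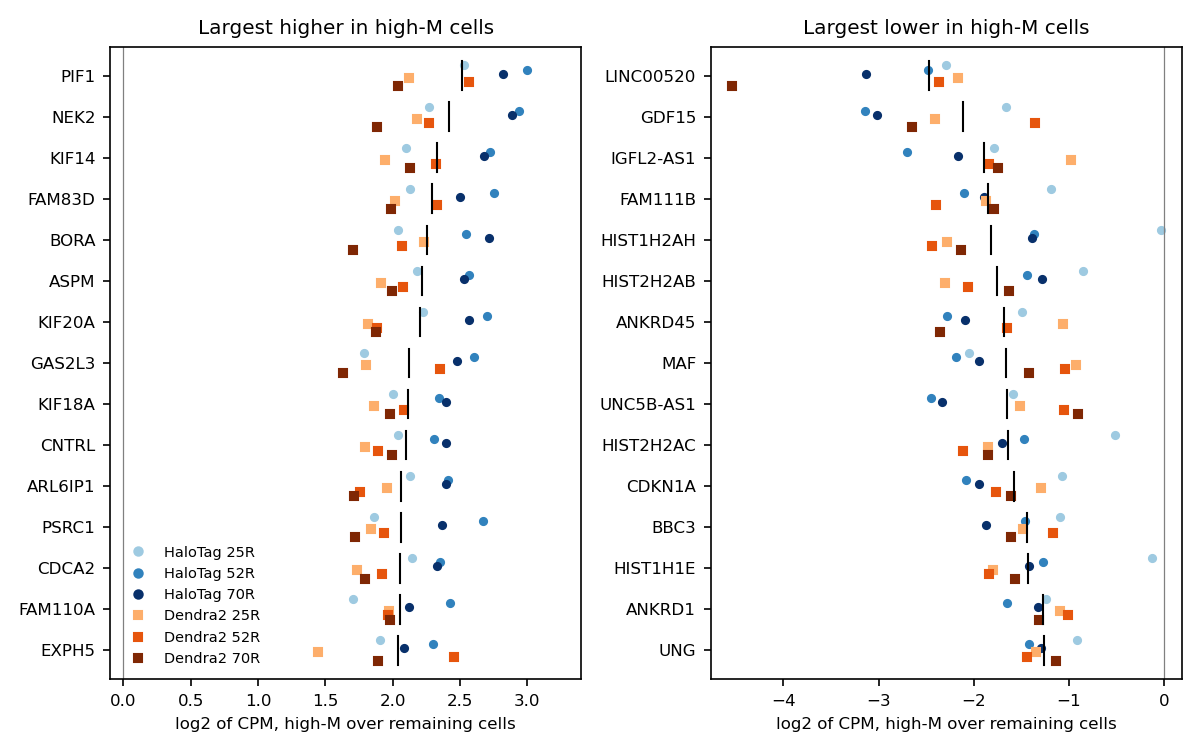
Log2 ratio of CPM in high-M over remaining cells (x axis) for the 15 genes with the largest rise (left) and the 15 with the largest fall (right), 1 point per library, circles for HaloTag and squares for Dendra2, with black ticks at the fitted mean. PIF1 lies highest with a fitted value of 2.51, and HIST1H2AH and HIST1H1E in HaloTag 25R lie close to 0 while their other libraries are lower.

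Of the 17 genes of the cyclin-CDK switch, 12 were higher and 0 lower, with a median log2 of 1.08. The 5 that were not called were ENSA (0.06), ARPP19 (0.07), MASTL (-0.08), CDC25A (-0.12) and PKMYT1 (-0.15). CDC25C, the phosphatase that activates CDK1, stood at 26.9, 37.3 and 48.3 CPM in high-M cells (lowest, median, highest) and at 7.94, 9.26 and 10.8 CPM in remaining cells, a log2 difference of 2.00 ± 0.08 (SE). CCNF, an F-box cyclin, rose by 1.98 ± 0.05, and CCNA2, the cyclin of S and G2, by 1.73 ± 0.08. CDK1 itself rose by 1.35, and WEE1, the kinase that restrains it, by 0.81. Genes of opposite role were called alike, among them the activator CDC25B (1.40) and the phosphatase CDKN3 (1.08), which inactivates CDKs.

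Mitotic kinases and the chromosomal passengers, which correct wrong attachments, followed, with 11 of 14 higher and 0 lower (median 1.04). CDCA8, also called borealin, stood at 154, 172 and 198 CPM in high-M cells and at 36.0, 44.3 and 51.6 CPM in remaining cells (log2 1.99 ± 0.06). TTK, the kinase at the head of the spindle checkpoint, rose by 1.77 ± 0.08 and INCENP, the scaffold of the passenger complex, by 1.77 ± 0.06. Among genes of the spindle checkpoint and kinetochore, 18 of 24 were higher and 0 lower (median 0.70). SGO2, a protector of centromeric cohesin, rose by 1.99 ± 0.07, NUF2 of the outer kinetochore by 1.70 ± 0.08, KNL1, its checkpoint platform, by 1.67 ± 0.07 and the checkpoint kinase-like BUB1B by 1.65 ± 0.07.

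Centromere chromatin had 15 of 21 genes higher and 2 lower (median 0.37). HJURP, the chaperone that deposits the centromeric histone, stood at 100.4, 134 and 172 CPM in high-M cells and at 30.1, 34.99 and 42.6 CPM in remaining cells (log2 1.89 ± 0.07). CENPA, the centromeric histone itself, rose by 1.83 ± 0.07, and CENPI, of the inner kinetochore, by 1.203 ± 0.098. The 2 that fell were CENPQ (-0.23) and CENPX (-0.18), small subunits of the inner kinetochore.

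Kinesins and spindle proteins formed the list with the highest median, 1.54, with 34 of 39 genes higher and 0 lower. Genes of cytokinesis followed with 10 of 14 higher and 1 lower (median 1.43). ARHGAP11A, a GTPase-activating protein that promotes furrowing, rose by 1.75 ± 0.07, CEP55, which gathers the abscission machinery at the midbody, by 1.67 ± 0.07, KIF23, of the centralspindlin complex, by 1.60 ± 0.06, and the citron kinase CIT by 1.49 ± 0.06. The single fall was that of CHMP2A (-0.41), a subunit of the ESCRT-III filaments that cut the midbody but also work elsewhere in the cell.

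Chromosome structure and ring-shaped SMC complexes moved less. Of 21 genes of condensin and cohesin, 19 were higher and 1 lower, with a median of 0.49. MKI67, the protein that coats mitotic chromosomes, stood at 348, 431 and 560.0 CPM in high-M cells and at 112, 140.0 and 228 CPM in remaining cells (log2 1.57 ± 0.06). ESPL1, the separase that cleaves cohesin, rose by 1.51 ± 0.10, and the condensin subunits NCAPG and NCAPH by 1.27 ± 0.06 and 1.08 ± 0.08. STAG2, a cohesin subunit, fell by 0.24. APC/C genes had 9 of 18 higher and 1 lower (median 0.11), led by the activator FZR1 (1.26 ± 0.08) and the ubiquitin-conjugating enzyme UBE2S (1.19 ± 0.10), while the core subunit CDC27 rose by 0.92 ± 0.05 and the inhibitor FBXO5 by 0.77 ± 0.05.

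Centrosome genes were higher in 15 of 17 cases and lower in 1 (median 0.56), with STIL, needed for centriole duplication, at 1.19 ± 0.06 and CEP192, which organises the surrounding material, at 0.75 ± 0.06. Tubulins had 7 of 13 higher and 2 lower (median 0.29). TUBA1C stood at 776, 1119 and 1511 CPM in high-M cells and at 449, 572 and 712 CPM in remaining cells (log2 0.95 ± 0.09), and TUBB4B rose by 0.91 ± 0.09. Genes of the nuclear lamina and envelope were higher in 9 of 15 cases and lower in 0 (median 0.24). SUN2, an inner membrane protein that links the nucleus to the cytoskeleton, was far above the others at 1.99 ± 0.09, with 13.4, 17.8 and 23.5 CPM in high-M cells and 3.44, 4.89 and 5.53 CPM in remaining cells. The lamin LMNB1 and its receptor LBR each rose by 1.04 (SE 0.07 and 0.04). Nuclear pore genes were higher in 22 of 27 cases and lower in 1 (median 0.30), with NUP35 at 0.79 ± 0.07 and NUP98 at 0.77 ± 0.06.

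**Figure D3:**
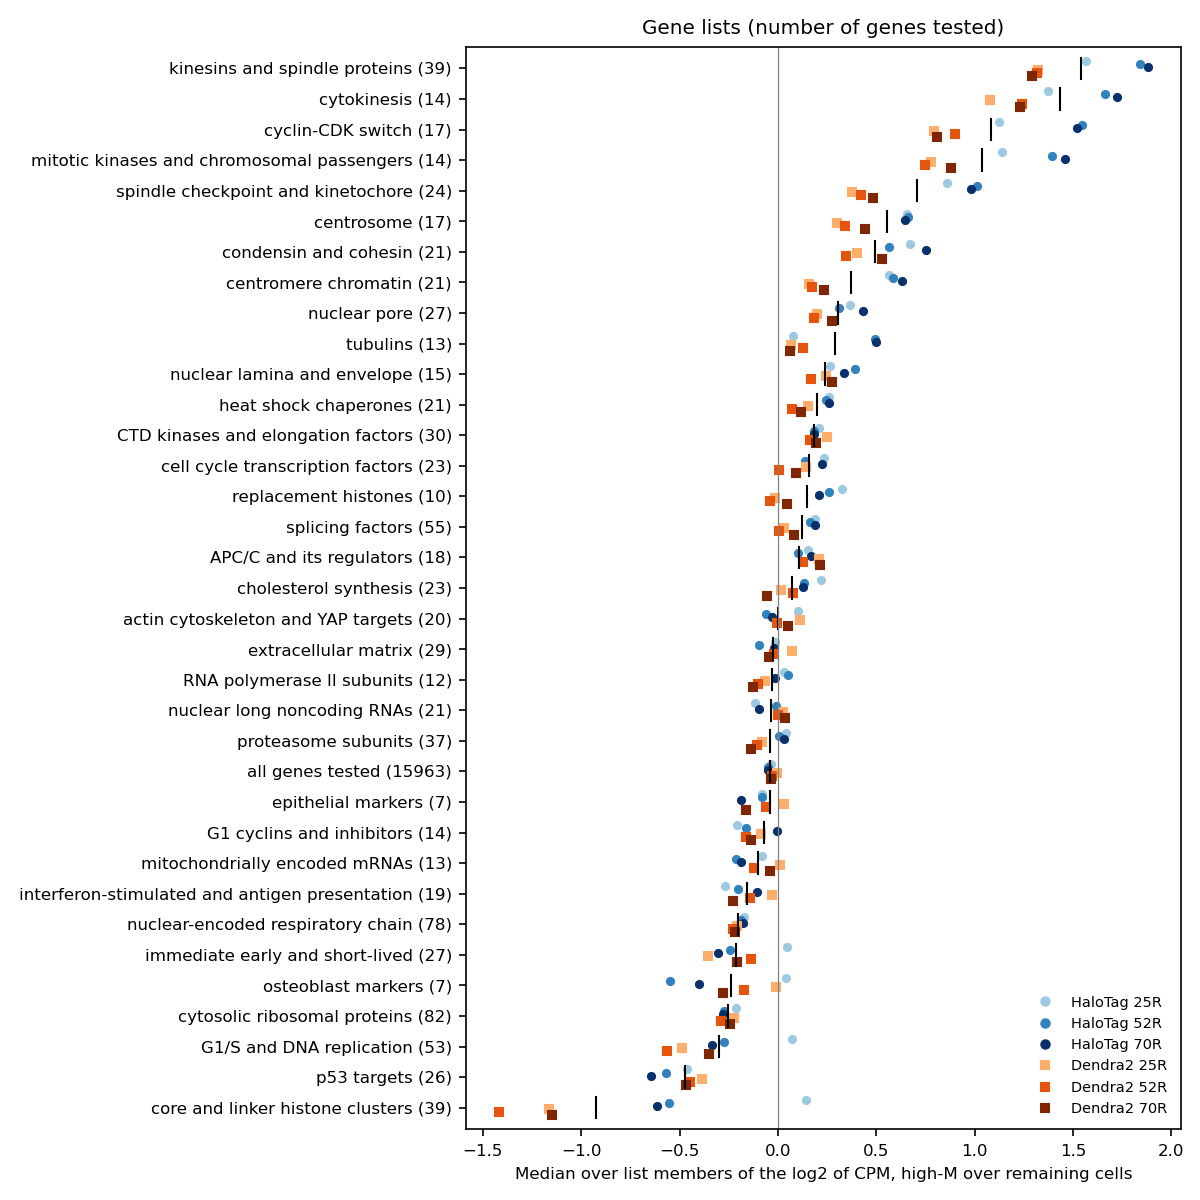
Median log2 ratio of CPM in high-M over remaining cells over the tested members of each gene list and of all 15963 genes tested (x axis), with the number tested beside each name, 1 point per library, circles for HaloTag and squares for Dendra2; black ticks give the median of fitted values. Kinesins and spindle proteins lie highest at 1.54 and histone clusters lowest at -0.92, with HaloTag 25R at 0.14 for the histones.

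The size of these medians depended on which remaining cells were taken. Against remaining cells with an M share of at least 0.1%, an alternative chosen after seeing the data, the median was 1.03 for kinesins and spindle proteins, 0.93 for cytokinesis, 0.71 for the cyclin-CDK switch and 0.60 for mitotic kinases and passengers. It was 0.33 for the spindle checkpoint and kinetochore, 0.27 for the centrosome, 0.23 for condensin and cohesin and 0.14 for centromere chromatin. Nuclear pore genes had a median of 0.11, genes of the lamina and envelope 0.10, APC/C genes 0.05 and tubulins 0.03. The median of G1/S and DNA replication was -0.54. All these medians kept their sign.

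Genes of G1/S and DNA replication were mostly lower in high-M cells, with 34 of 53 lower and 4 higher and a median log2 of -0.30. CCNE2, the cyclin that starts S phase, fell by 2.72 ± 0.18 (SE; edgeR adjusted p = 1.26e-09), and averaged under 10 CPM, the level asked of the 15 largest falls. Its lowest, median and highest levels were 1.13, 1.97 and 5.32 CPM in high-M cells and 12.7, 16.0 and 20.02 CPM in remaining cells, with no overlap. MCM6, a subunit of the replicative helicase whose promoter is shown above, stood at 11.1, 16.9 and 24.7 CPM in high-M cells and at 33.0, 40.2 and 52.0 CPM in remaining cells (log2 -1.26 ± 0.11). UNG, which removes uracil from DNA, fell by 1.26 ± 0.08 and MCM5 by 0.94 ± 0.08. The 4 that rose were GINS1 (0.37), RFC3 (0.25), RRM1 (0.22) and RPA2 (0.17). FAM111B, which encodes a protease, was among the 15 largest falls and stood at 11.9, 17.1 and 22.9 CPM against 52.1, 62.7 and 68.5 CPM (-1.85 ± 0.10).

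Among cell cycle transcription factors 11 of 23 were higher and 3 lower (median 0.16, and 0.05 against remaining cells with an M share of at least 0.1%). FOXM1, the activator of G2 and M genes, rose by 0.83 ± 0.08 with 101.1, 111 and 119 CPM in high-M cells and 49.4, 63.4 and 77.9 CPM in remaining cells. E2F5 rose by 0.90 ± 0.09, while E2F1 and E2F2, activators of G1/S genes, fell by 1.198 ± 0.099 and 1.28 ± 0.18. G1 cyclins and inhibitors split, with 4 of 14 higher and 6 lower (median -0.07). The INK4 inhibitors CDKN2D (1.06 ± 0.07) and CDKN2C (0.76 ± 0.07) and the CIP/KIP inhibitor CDKN1B (0.72) were higher, whereas its relatives CDKN1A (-1.58 ± 0.09) and CDKN1C (-0.98 ± 0.07) were lower.

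Targets of p53, the transcription factor of the DNA damage response, were lower almost throughout, with 24 of 26 lower and 0 higher and a median of -0.47. CDKN1A, which halts the cycle by binding CDKs, stood at 103, 24.3 and 32.6 CPM in high-M cells of the HaloTag libraries (25R, 52R, 70R) and at 55.4, 29.3 and 40.7 CPM in those of Dendra2, against 217, 103 and 125 CPM in remaining HaloTag cells and 136, 100.1 and 124 CPM in remaining Dendra2 cells. It was lower in 6 of 6 libraries, although high-M cells of HaloTag 25R reached the lowest remaining samples (edgeR adjusted p = 4.42e-10). GDF15, a stress cytokine, fell by 2.11 ± 0.15, with 29.5 CPM in high-M cells of HaloTag 25R and 1.13 to 2.58 CPM in those of the other libraries, against 93.5 CPM in remaining cells of HaloTag 25R and 3.003 to 16.5 CPM elsewhere. BBC3, which triggers apoptosis, fell by 1.44 ± 0.09 and did not overlap, at 7.98, 10.4 and 12.2 CPM against 24.5, 28.4 and 31.2 CPM, and TP53INP1 fell by 1.24 ± 0.11. Per cell, 1.44% to 5.15% of high-M cells and 10.5% to 10.9% of remaining cells were in the top 10% of their library for p53 targets.

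Several of the largest falls lay outside these lists. LINC00520, a long noncoding RNA, fell by 2.47 ± 0.12 and had 53.8 CPM in high-M cells of HaloTag 25R and 264 CPM in its remaining cells, while the other 5 libraries had 0.322 to 1.82 CPM in high-M cells and 3.62 to 16.5 CPM in remaining cells. Its level in HaloTag 25R was far above all others, and it was lower in high-M cells of 6 of 6 libraries, a condition of its choice. IGFL2-AS1 (-1.89 ± 0.13) and UNC5B-AS1 (-1.65 ± 0.14) are antisense transcripts. The sources used here do not say whether the counting used strand, and whether reads of overlapping genes entered their counts was not checked. MAF, a transcription factor of the AP-1 family, fell by 1.66 ± 0.13, ANKRD45 by 1.68 ± 0.13 and ANKRD1, a target of YAP, by 1.27 ± 0.06, with 169, 209.6 and 273 CPM in high-M cells against 399, 540.0 and 581 CPM in remaining cells.

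The histone list holds core and linker histones, most of them replication-dependent histones made in S phase, whose transcripts mostly end without a poly(A) tail, so that 3′ libraries count only part of them. Of its 71 genes in the files 39 were tested, of which 32 were lower and 1 higher, with a median of -0.92. HIST1H2AH stood at 12.1, 11.4 and 7.14 CPM in high-M cells of the HaloTag libraries (25R, 52R, 70R) and at 19.1, 23.5 and 22.7 CPM in those of Dendra2, against 12.4, 29.5 and 18.7 CPM in remaining HaloTag cells and 92.9, 128 and 99.6 CPM in remaining Dendra2 cells. The fall was large in all Dendra2 libraries, smaller in HaloTag 52R and 70R and close to 0 in HaloTag 25R (fitted log2 -1.82 ± 0.18). HIST2H2AB (-1.75 ± 0.12), HIST2H2AC (-1.64 ± 0.12) and the linker histone HIST1H1E (-1.43 ± 0.13) were also among the 15 largest falls. Near-identical copies within these clusters, HIST2H4B for example, can share reads, so values of single genes are uncertain. The gene that rose was HIST1H2BN (0.50).

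The histone list set HaloTag 25R apart from the other libraries. Its median log2 was 0.14 in HaloTag 25R, -0.56 in HaloTag 52R and -0.61 in HaloTag 70R, and -1.16, -1.42 and -1.15 in the Dendra2 libraries. Summed over the tested histone genes, high-M cells held 526, 534 and 510 CPM in HaloTag 25R, 52R and 70R. Remaining cells held 501, 987 and 831 CPM there, so HaloTag 25R was unlike 52R and 70R in its remaining cells. In Dendra2, high-M cells held 739, 1019 and 703 CPM and remaining cells 1759, 3236 and 1773 CPM. In HaloTag 25R 13.8% of high-M cells were in the top 10% of the library for histone transcripts, against 9.57% of remaining cells; in the other 5 libraries 0.641% to 3.51% of high-M cells were. The G1/S list had a median of 0.07 in HaloTag 25R and between -0.28 and -0.56 elsewhere. HaloTag 25R also had the lowest M share boundary, 0.407%.

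Replacement histones, which are made throughout the cycle, had 6 of 10 genes higher and 1 lower (median 0.15, and -0.02 when remaining cells were limited to an M share of at least 0.1%). H2AFX, the variant phosphorylated at DNA breaks, stood at 154, 178 and 229 CPM in high-M cells and at 69.0, 97.9 and 130.1 CPM in remaining cells (log2 0.93 ± 0.08).

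Ranking all cells of a library by M share and cutting them into deciles placed these changes along the score. Transcripts of kinesins and spindle proteins were highest in decile 10 in all 6 libraries, and lowest in decile 1 in 5 libraries and in decile 2 in HaloTag 70R. G1/S genes were highest in decile 6 or 7 in HaloTag libraries and in decile 3, 4 or 5 in Dendra2 libraries. They stood at 0.290 to 0.416 times their mean over the library's deciles in decile 1, and at 0.792 to 1.13 times in decile 10. Histone transcripts were highest in decile 9 in HaloTag 25R, in decile 7 in HaloTag 52R and 70R, and in deciles 7, 5 and 6 in Dendra2 25R, 52R and 70R. In decile 10 they stood at 0.374 to 1.11 times their mean over the library's deciles. Targets of p53 were highest in decile 1 or 2 in all 6 libraries and stood at 0.662 to 0.807 times their mean in decile 10. The scoring genes define the axis, so the course along it is a description.

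**Figure D4:**
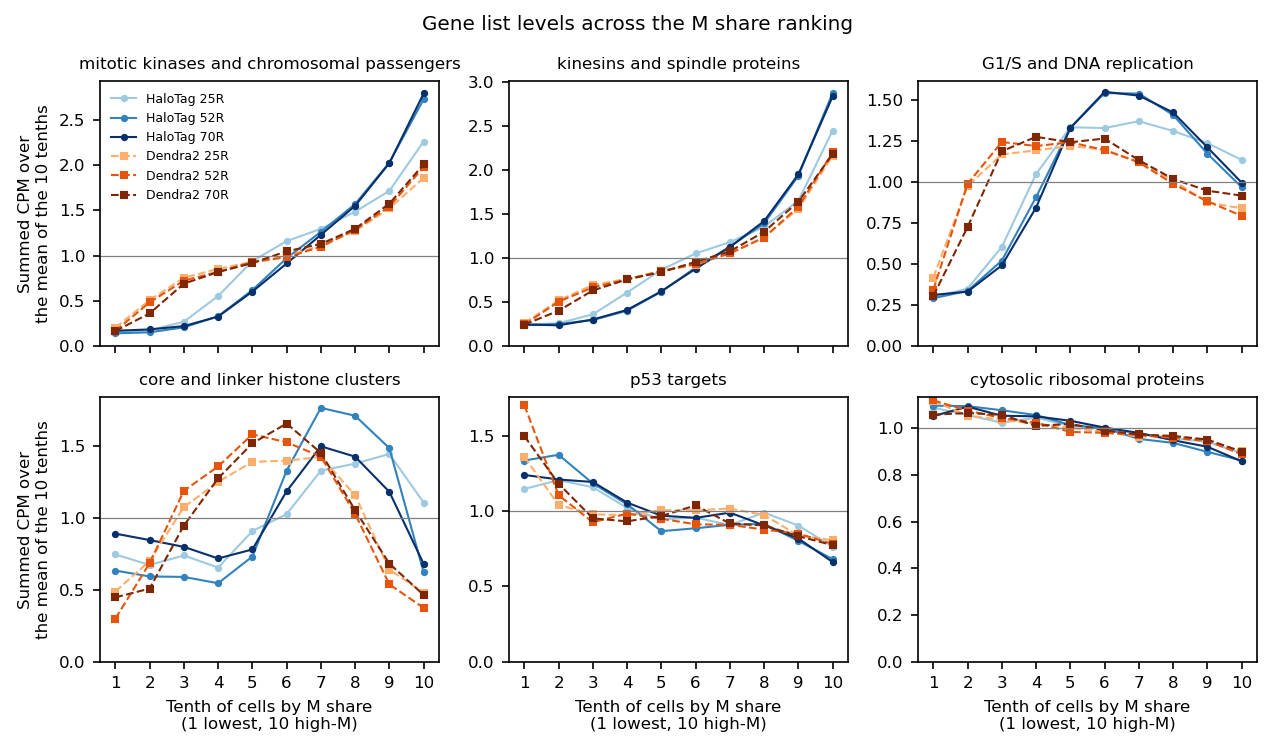
Summed CPM of 6 gene lists over the mean of the 10 deciles of the same library (y axis, from 0) in deciles of cells ranked by M share (x axis, 10 being the high-M cells), HaloTag solid with circles and Dendra2 dashed with squares. Mitotic lists climb to decile 10, G1/S and histone lists peak earlier, and histones in HaloTag 25R peak in decile 9 at 1.44 times the mean.

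Transcripts for making proteins and for respiration were slightly lower. Of 82 genes named as cytosolic ribosomal proteins, 78 were lower and 2 higher, with a median of -0.26 (-0.19 with library totals). RPL34 stood at 1759, 2062 and 2269 CPM in high-M cells and at 2331, 2636 and 2883 CPM in remaining cells (log2 -0.36 ± 0.03), without overlap. The 2 that rose were RPL39L (0.33 ± 0.08), a paralog of RPL39, and RPL7L1 (0.30), which is not part of the mature ribosome. Nuclear-encoded respiratory chain genes were lower in 64 of 78 cases and higher in 1 (median -0.20, and -0.14 with library totals), among them COX5B (-0.33 ± 0.03) and NDUFA3 (-0.33 ± 0.04). Of 13 mitochondrially encoded mRNAs 8 were lower and 1 higher (median -0.10), with MT-CO2 and MT-CO1 each at -0.18 ± 0.02.

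The share of UMIs from mitochondrial genes per cell had medians of 6.498%, 7.88% and 8.17% in high-M cells of HaloTag 25R, 52R and 70R and 6.05%, 5.79% and 5.41% in those of Dendra2, against 6.89%, 8.99% and 9.22% in remaining HaloTag cells and 5.98%, 6.17% and 5.41% in remaining Dendra2 cells. It was lower in high-M cells of 4 of 6 libraries with a mean difference of -0.475 ± 0.506 percentage points (SD, n = 6; two-sided exact sign-flip test, p = 0.125, where 0.03125 is the smallest possible). That difference did not pass the test.

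Genes of RNA polymerase II and its partners moved little. Of the 12 subunits 3 were higher and 3 lower, where 20.3% of all genes tested were higher and 24% lower. Their median, -0.03, turned to 0.04 with library totals. POLR2A, the gene of RPB1, stood at 226, 366 and 217 CPM in high-M cells of the HaloTag libraries (25R, 52R, 70R) and at 322, 286 and 178 CPM in those of Dendra2, against 194, 306 and 203 CPM in remaining HaloTag cells and 310, 246 and 195 CPM in remaining Dendra2 cells. The groups overlapped, 5 of 6 libraries were higher, and the log2 difference was 0.12 ± 0.04 (edgeR adjusted p = 0.0358). POLR2D (0.36 ± 0.05) and POLR2B (0.30 ± 0.04) were higher, and POLR2F (-0.20 ± 0.04) and POLR2I (-0.17 ± 0.03) lower. CTD kinases and elongation factors were higher in 18 of 30 cases and lower in 0 (median 0.18), with the P-TEFb inhibitor HEXIM1 at 0.51 ± 0.06 and the PAF1 complex subunit LEO1 at 0.51 ± 0.05. Splicing factors were higher in 30 of 55 cases and lower in 5 (median 0.12, and 0.03 against remaining cells with an M share of at least 0.1%), with HNRNPUL2 at 0.56 ± 0.06 and SNRPN at -0.45 ± 0.05.

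The sequence of the tag itself, listed among the features of the matrices, was rare. It had 63, 92 and 67 UMIs in high-M cells of HaloTag 25R, 52R and 70R and 87, 99 and 74 UMIs in those of Dendra2, against 472, 607 and 480 UMIs in remaining HaloTag cells and 734, 605 and 504 UMIs in remaining Dendra2 cells. As a rate in the sum of all UMIs (CPM) this was 9.12 to 16.0 in high-M cells and 9.16 to 15.8 in remaining cells, a mean log2 ratio of 0.06 ± 0.18 (SD, n = 6; two-sided exact sign-flip test, p = 0.438). The ratio was above 0 in 3 of 6 libraries and did not pass the test.

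Unstable and nuclear transcripts were mixed. Immediate early and other short-lived transcripts were lower in 13 of 27 cases and higher in 7 (median -0.21). ATF3, a stress factor, stood at 5.93, 9.38 and 14.4 CPM in high-M cells and at 15.2, 19.95 and 29.6 CPM in remaining cells (log2 -1.17 ± 0.07), and the antiproliferative BTG2 fell by 0.84 ± 0.09, whereas FOSL1, a partner of JUN, rose by 0.81 ± 0.07. Nuclear long noncoding RNAs were lower in 8 of 21 cases and higher in 4, where 24% of all genes tested were lower and 20.3% higher. Their summed level in high-M cells was 9371, 9555 and 8315 CPM in the HaloTag libraries, against 12126, 11909 and 10494 CPM in remaining cells. In Dendra2 it was slightly higher, at 9965, 8546 and 8892 against 9877, 8492 and 8725 CPM. The sum stood at 1.54 to 2.01 times its mean over deciles in decile 1, and at 0.78 to 1.04 times in decile 10. NEAT1, the scaffold of paraspeckles, stood at 923, 475 and 337 CPM in high-M cells of the HaloTag libraries (25R, 52R, 70R) and at 598, 365 and 426 CPM in those of Dendra2, against 1854, 1334 and 1052 CPM in remaining HaloTag cells and 925, 583 and 797 CPM in remaining Dendra2 cells (log2 -1.06 ± 0.10, lower in 6 of 6 libraries). DANCR fell by 0.47 ± 0.03, and KCNQ1OT1, which silences its imprinted neighbours, rose by 0.53 ± 0.10.

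Heat shock chaperones were higher in 15 of 21 cases and lower in 1 (median 0.20, and 0.08 against remaining cells with an M share of at least 0.1%). HSPA1A, an inducible HSP70, stood at 140, 150.4 and 179 CPM in high-M cells and at 65.1, 81.5 and 95.8 CPM in remaining cells (log2 0.93 ± 0.07), and its near-identical copy HSPA1B, with which it can share reads, rose by 0.78 ± 0.08. The co-chaperones DNAJB1 (0.66 ± 0.04) and BAG3 (0.57 ± 0.05) also rose. In cholesterol synthesis 9 of 23 genes were higher and 1 lower (median 0.07), among them the mevalonate kinase MVK (0.44 ± 0.08) and the squalene epoxidase SQLE (0.25 ± 0.04). Interferon-stimulated and antigen presentation genes were lower in 10 of 19 cases and higher in 2 (median -0.16, and -0.04 against remaining cells with an M share of at least 0.1%). ISG15 fell by 0.52 ± 0.05, while IFIT1, at 7.05, 8.48 and 13.1 CPM in high-M cells and 3.06, 3.64 and 7.57 CPM in remaining cells, rose by 1.18 ± 0.11.

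For the lists of this paragraph, the shares over all genes tested were 20.3% higher and 24% lower, and counts near those shares do not set a list apart. Proteasome subunits were higher in 9 of 37 cases and lower in 13, with PSMD10 at 0.39 ± 0.06 and PSMB10, of the immunoproteasome, at -0.31 ± 0.04. Extracellular matrix genes were higher in 3 of 29 cases and lower in 5. LUM, a proteoglycan, fell by 0.77 ± 0.08 and the protease inhibitor TIMP1 by 0.36 ± 0.04, while THBS1, an adhesive glycoprotein, rose by 0.52 ± 0.05. Genes of the actin cytoskeleton and YAP targets were higher in 8 of 20 cases and lower in 6. Osteoblast markers were higher in 1 of 7 cases and lower in 3, with RUNX2, the osteoblast transcription factor, at -0.54 ± 0.07. SPP1 and TNFRSF11B were also lower by the fit, and COL1A1 was higher, at 1.17 times its level in remaining cells. High-M and remaining samples overlapped for SPP1, TNFRSF11B and COL1A1. SPP1 was near the floor, at 0 to 9.50 CPM in high-M and 0.488 to 20.5 CPM in remaining samples. Its median was higher in high-M samples, 2.94 against 2.19 CPM. Of 7 epithelial markers 1 was higher and 3 were lower, KRT8 by 0.25 ± 0.04 and KRT18 by 0.21 ± 0.03, and of 3 leukocyte markers CD3D was lower (-0.64 ± 0.18) at 0.987 to 10.5 CPM against 0.964 to 18.3 CPM.

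Whether the difference between high-M and remaining cells depended on the tag was tested as an interaction. It was larger in HaloTag libraries, that is more positive, for 458 genes, 2.87% of those tested, and smaller for 107, 0.67% (edgeR's quasi-likelihood test, Benjamini-Hochberg adjusted p under 0.05). With DESeq2 466 genes were larger and 29 smaller, and with library totals in place of TMM 292 were larger and 163 smaller. Of the 458 genes, 278 were also higher in high-M cells over all libraries and 45 lower; of the 107, 69 were lower and 5 higher. Kinesins and spindle proteins were called larger in HaloTag in 25 of 39 cases, spindle checkpoint and kinetochore genes in 16 of 24 and mitotic kinases and passengers in 9 of 14, and none of these 3 lists had a member called smaller. The medians of their differences were 0.43, 0.44 and 0.40 on the log2 scale, against -0.01 over all genes tested. Genes larger in HaloTag were not limited to these lists. Centromere chromatin had 12 of 21, condensin and cohesin 11 of 21, G1/S and DNA replication 18 of 53 and splicing factors 17 of 55. Cytosolic ribosomal proteins had 2 of 82 and p53 targets 0 of 26. KIF20A had a log2 difference of 2.20 over all libraries and an excess of 0.67 in HaloTag, and UBE2S one of 0.72.

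The remaining cells to which high-M cells were compared were unlike between the tags. Only 54.0% of remaining cells in HaloTag 25R, 45.3% in 52R and 45.7% in 70R had an M share of at least 0.1%, against 69.4%, 68.3% and 63.7% in Dendra2 25R, 52R and 70R. When remaining cells were limited to those, an alternative chosen after seeing the data, 12 genes were called between tags, all of them among the 565. Of the 10 genes named below, HIST1H2AH, HIST1H4C, CXCL14, MAF, TXNIP and GPNMB then missed the threshold. The count also moved with single libraries: leaving out HaloTag 25R gave 879, HaloTag 52R 354, Dendra2 25R 371 and Dendra2 52R 330. It was 323 with remaining cells matched on UMIs.

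The largest excess in HaloTag was in histones. HIST1H3D stood at 4.03, 6.08 and 3.50 CPM in high-M cells of the HaloTag libraries (25R, 52R, 70R), against 3.85, 11.7 and 7.05 CPM in remaining cells of these libraries. In Dendra2 25R, 52R and 70R it stood at 14.1, 19.7 and 20.6 CPM in high-M cells, against 88.8, 140 and 83.4 CPM in remaining cells. Its log2 difference was larger in HaloTag than in Dendra2 libraries by 1.78 (edgeR adjusted p = 0.00033). Remaining HaloTag cells held far less of it than remaining Dendra2 cells, and the fall in high-M cells was steep in Dendra2 and shallow or absent in HaloTag. HIST1H2AH (1.33), HIST1H2AG (1.27), HIST1H2BF (1.21) and HIST1H4C (1.16) followed, and 15 of 39 tested histone genes were called larger and 0 smaller.

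CCN3, a matricellular protein, had the largest deficit in HaloTag, -1.29. It stood at 14.0, 8.19 and 29.4 CPM in high-M cells of the HaloTag libraries (25R, 52R, 70R) against 33.3, 27.1 and 73.3 CPM in remaining cells, and at 33.9, 76.5 and 16.9 CPM in high-M cells of Dendra2 against 38.3, 67.2 and 26.6 CPM in remaining cells. It was thus lower in high-M cells of all HaloTag libraries and on both sides of its remaining level in Dendra2. CXCL14, a chemokine (-1.17), MAF (-0.97), TXNIP, an inhibitor of thioredoxin (-0.96), and GPNMB, a lysosomal glycoprotein (-0.78), were the next.

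**Figure D5:**
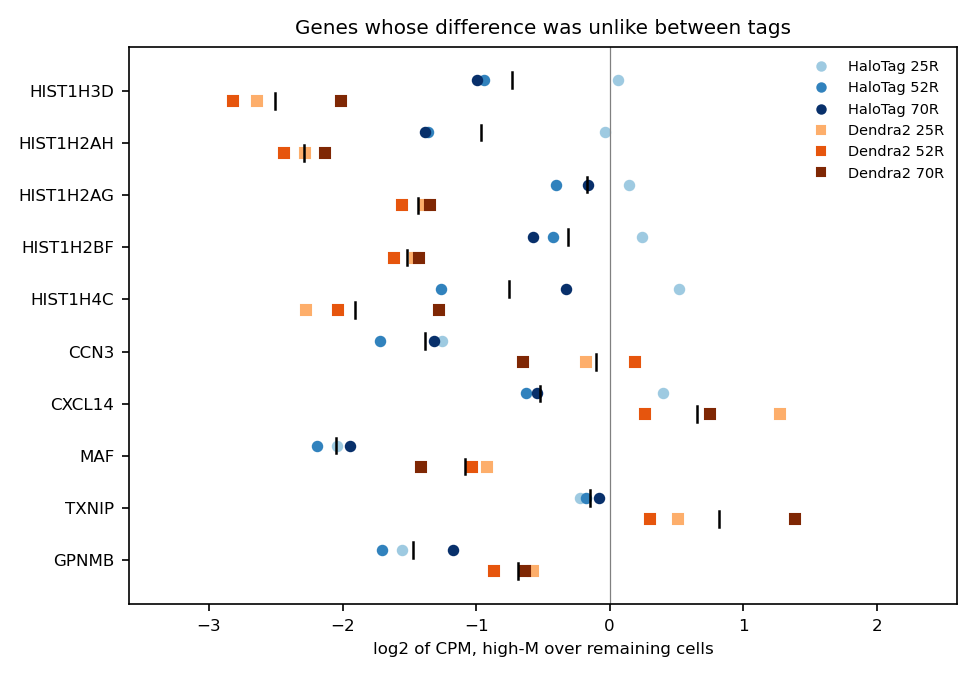
Log2 ratio of CPM in high-M over remaining cells (x axis) for the 5 genes most in excess and the 5 most in deficit in HaloTag, circles for HaloTag libraries above squares for Dendra2 libraries, black ticks at the fitted value of each tag. For HIST1H3D the HaloTag points lie to the right of the Dendra2 points by a fitted 1.78, and for CCN3 to the left by 1.29.

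The same question for CTD length gave 0 called genes of 15963, 0% (edgeR's quasi-likelihood test, Benjamini-Hochberg adjusted, interaction of high-M state with 25R, 52R and 70R). An unadjusted p under 0.05 was found for 411 genes, 2.57%, and DESeq2 also called 0. With 2 libraries per length and 3 residual degrees of freedom, the design says little about single genes.

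Since each library contributes 10% of its cells by the rule, the share of cells with a high score was compared at 1 common M share. Cells were thinned to 5000 UMIs, and those with fewer were left out, most of them in HaloTag 70R, where 4460 of 4677 cells were used. The cells of HaloTag 25R, 52R and 70R that lay above a common value then made up 6.26%, 13.9% and 15.1%. Those of Dendra2 25R, 52R and 70R made up 7.85%, 9.55% and 7.51%. The value was 0.494%, the mean over libraries of the value that the top 10% exceeded after thinning. The means were 11.7% ± 4.79 in HaloTag and 8.30% ± 1.09 in Dendra2 (SD, n = 3 each; exact permutation test, two-sided, p = 0.4, the design allowing no p under 0.1). HaloTag 25R lay below all Dendra2 libraries and HaloTag 52R and 70R above them, and the difference of 3.44 percentage points was 6.18 without HaloTag 25R and 1.76 without HaloTag 70R.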

How the data were processed

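The members and gene lists were chosen with earlier results of these data known. UMI counts of 6 libraries were used as deposited by the authors, and Cell Ranger 6.1.2 wrote them, per the file headers; bcl2fastq and GRCh38 are named in the submitters' processing notes, and the 2 runs of each HaloTag library are merged. The deposited kinetic tables were not used here. Barcodes under 500 genes or over 20% mitochondrial UMIs were dropped, in all 2.01% to 3.03% of barcodes. For each library the UMIs of its high-M and of its remaining cells were added up; the sums were passed through filterByExpr, scaled with TMM factors and tested with edgeR 4.0.16 in R 4.3.3, with library as a block; DESeq2 1.42.0 was run beside it. The block pairs samples of the same library. CPM on the log2 scale carried a prior count of 2. The 10 scoring genes and the tag sequences were left out. Promoters on chromosome 8 were not considered for printing. Single values were tested with exact sign-flip or permutation tests (numpy 2.4.6 in Python 3.11.15).

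Genes were named by size of change, 15 in each direction, from called genes that averaged 10 CPM or more and moved one way in 6 of 6 libraries, 2 to 4 called members per list with the largest change, and 5 in each direction between tags; list members given with a value and no error were chosen after their values were seen. Alternatives were other normalizations and filters, other shares of cells, thinning, matching on UMIs, leaving out UMI-rich cells and leaving out each library. Some genes that this rule names are not reported here.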

Additional observations from a re-analysis of the deposited data

Results flagged for a closer look

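HaloTag 25R lay far from the other 5 libraries in 3 values. The log2 difference of HIST1H1E was -0.13 there, 13.8% of its high-M cells were in the top 10% of the library for histone transcripts, and 4.31% were in the top 10% for genes of G1/S and DNA replication. Chance alone places 1 library this far from the rest in about 1 in 20 groups, and 44 groups of 6 values were examined.

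The difference between high-M and remaining cells differed between tags, by the interaction test, for HIST1H3D (1.78, HaloTag minus Dendra2 on the log2 scale), HIST1H2AH (1.33), HIST1H2AG (1.27), HIST1H2BF (1.21), HIST1H4C (1.16), CCN3 (-1.29), CXCL14 (-1.17), MAF (-0.97), TXNIP (-0.96) and GPNMB (-0.78). These are the genes shown in the plot of genes by tag.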

How the results depend on the processing

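Without the replicate block, that is without pairing the samples of a library, 527 genes were higher and 199 lower in high-M cells, and 0 differed between tags. Leaving out each library in turn gave 2747 to 3039 higher and 3229 to 3598 lower genes, 330 to 879 between tags and 0 or 1 between CTD lengths (1 without HaloTag 52R). Other counts between tags were 1291 with no filter on low counts, 1045 with the top 20% of cells and 767 with 1 common M share for all libraries. They were 323 with remaining cells matched on UMIs and 12 with remaining cells of an M share of at least 0.1%. With no filter 14 genes differed between CTD lengths. The cause of these moves was not tested. The mean log2 ratio of the tag sequence was -0.0701 after thinning, -0.052 without cells above 2 times the median UMIs and -0.0352 with the top 20%, 0.172 with remaining cells matched on UMIs and 0.223 with the top 5%, and 0.01 to 0.10 with 1 library left out. The mitochondrial difference ran from -0.59 to -0.35 percentage points and the common M share difference from 1.76 to 6.18 with 1 library left out; the highest, without HaloTag 25R, set HaloTag 52R and 70R against Dendra2. The 30 genes of the largest changes kept their direction in 540 of 540 recomputed values, 7 of which missed the threshold. These genes were chosen from the same data for large changes in 1 direction, so their kept direction says little. Of 177 recomputed values of the 10 genes between tags, 24 missed the threshold. Of these, 10 were without the block and 6 with remaining cells of an M share of at least 0.1%. With DESeq2, 5 of the 10 genes passed the threshold, 2 missed it and the rest had no adjusted p. List medians moved in 40 of 630 recomputed values, 20 of them with remaining cells of an M share of at least 0.1%. DESeq2 called 5738 genes, of which 5736 were among the 7071. Few UMIs per cell limit single cells, and 6 libraries limit every test.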
